A study of Mus musculus with 2 samples.

Results

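The lungs were sorted for endothelial cells (ECs), and the barcodes described here are those that nevertheless carried RNA of Tyrobp and Fcer1g, adaptors of myeloid cells. Of these 139 barcodes, 80 were marked by platelet genes. A barcode stands for 1 droplet, and its unique molecular identifiers (UMIs) count captured RNA molecules. Members had at least 300 genes, under 20% mitochondrial UMIs, at least 4 UMIs of Tyrobp and Fcer1g together, no UMI of the endothelial cadherin Cdh5, none of the lymphocyte genes Cd3e, Cd3g, Cd79a and Ms4a1, and at most 2 of Nkg7. The rule found 139 barcodes of 21983 that passed the limits on genes and mitochondrial UMIs, 46 of 10478 in control and 93 of 11505 in B16-F10. They were divided by the calprotectin genes S100a8 and S100a9 into 18 neutrophils, with at least 20 UMIs of both together, and 121 others. The comparison set was 9329 control and 9688 B16-F10 barcodes with at least 1 Cdh5 UMI.

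The study asked how the lung vasculature responds when melanoma cells arrive. Wild-type C57BL/6 mice received PBS (control) or 400000 B16-F10 cells, a mouse melanoma line, in 100 µl through a tail vein, and lungs were collected at 6 h. The labels give 2 mice per treatment, whereas the methods describe pools of 3 for this kind of sort, so the pool size is uncertain. From digested lungs, Pecam1-positive and Ptprc-negative cells were sorted, and melanoma cells carrying a green tracker dye were collected in addition from the injected lungs alone, so the second gate and the injection cannot be told apart. Each group was 1 library and there was no replicate. No test was therefore made, and every difference compares 2 libraries. UMIs summed to 85794655 for control and to 104978816 for B16-F10. Intervals are 95% intervals that cover counting error only, and they are too narrow where barcodes of a class differ among themselves. The libraries shared 36 barcode sequences, of which 0 belonged to control members and 2 to B16-F10 members, and no sequence was a member in both.

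Tyrobp (chromosome 7, 30413760 to 30417585 on the plus strand) and Fcer1g (chromosome 1, 171229572 to 171234365 on the minus strand; both GRCm38) encode membrane adaptors. Their cytoplasmic motifs, called ITAMs, recruit the kinase Syk once a partner receptor is engaged. Tyrobp serves receptors of neutrophils, monocytes, macrophages and NK cells, whereas Fcer1g also serves the collagen receptor of platelets. Platelets have no nucleus, carry RNA left from megakaryocytes, and bear PECAM1 on their surface, as do neutrophils and monocytes. Neutrophils and monocytes enter the lung from blood, and alveolar macrophages live in the air spaces.

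The markers did not bear out a purely myeloid label. In the control library 32 of 46 members had no Tyrobp UMI, and in the B16-F10 library 47 of 93, so these barcodes entered through Fcer1g alone. Platelet genes accounted for nearly all of them. Barcodes with at least 4 of 7 platelet genes (Ppbp, Pf4, Itga2b, Gp1bb, Gp9, Gp6 and Treml1) and at most 3 of 7 leukocyte genes (Ptprc, Coro1a, Laptm5, Cd52, Rac2, Cd53 and Arhgdib) are called platelet-marked. They numbered 34 in control and 46 in B16-F10, and Tyrobp was at 0 in 32 and in 46 of them. Csf1r, the receptor for the macrophage growth factor, and Cd68, a macrophage lysosomal protein, were at 0 in every platelet-marked barcode. The leukocyte phosphatase Ptprc was at 0 in 34 of 34 and 45 of 46. The remaining 12 control and 47 B16-F10 members are called leukocyte-marked.

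**Figure D1:**
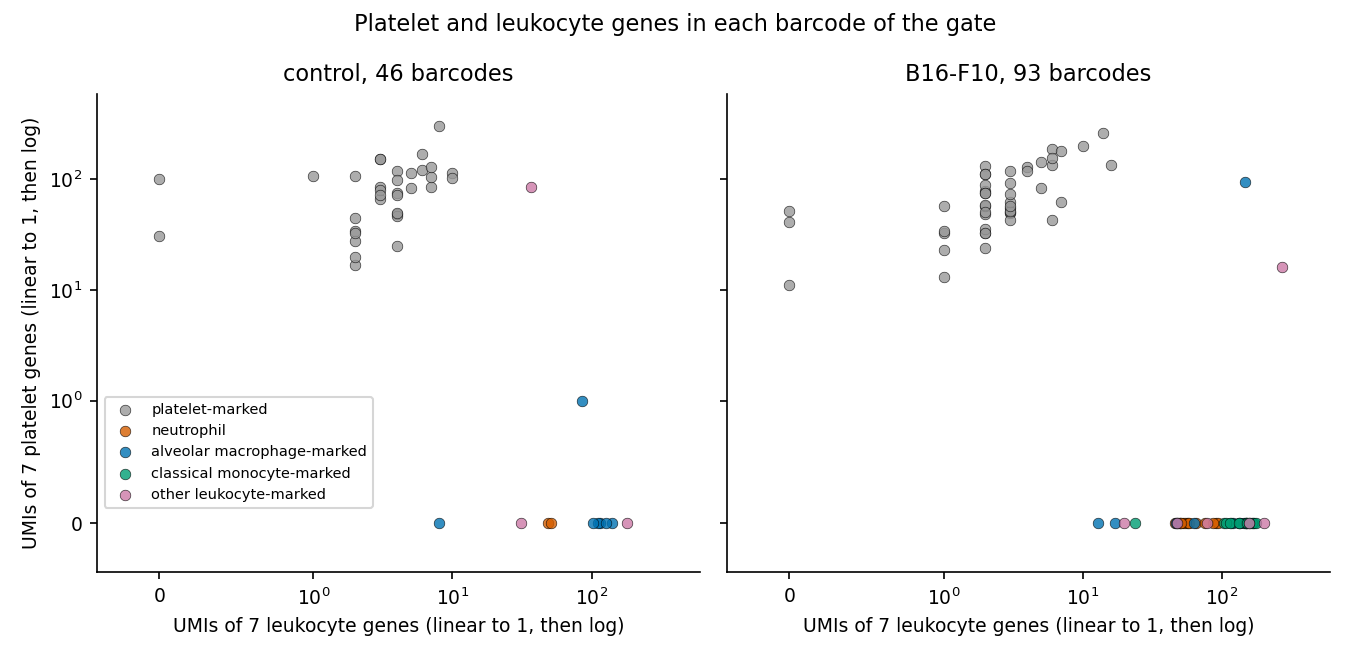
Each point is 1 barcode of the gate, with the summed UMIs of 7 leukocyte genes on the x axis and of 7 platelet genes on the y axis, both linear to 1 and logarithmic above, and colours give the class. The 34 control and 46 B16-F10 platelet-marked barcodes lie at the upper left of each panel and most leukocyte-marked barcodes lie at 0 platelet UMIs.

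The border between the classes held few barcodes. No member had exactly 3 platelet genes, and 26 of 34 control and 38 of 46 B16-F10 platelet-marked barcodes had 6 or 7. A median of 2 of the 7 leukocyte genes was detected in platelet-marked barcodes against 7 of 7 in neutrophils. The lower limit of the gate ran through the platelet-marked barcodes. With exactly 4 UMIs of Tyrobp and Fcer1g, 11 of 11 control and 23 of 24 B16-F10 members had at least 4 platelet genes. Just outside, with exactly 3 UMIs, 37 of 38 and 47 of 50 barcodes did. The division at 20 calprotectin UMIs, by contrast, crossed an empty range. The highest value among the others was 5 in control and 3 in B16-F10, and the lowest value among neutrophils was 662 and 101.

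**Figure D2:**
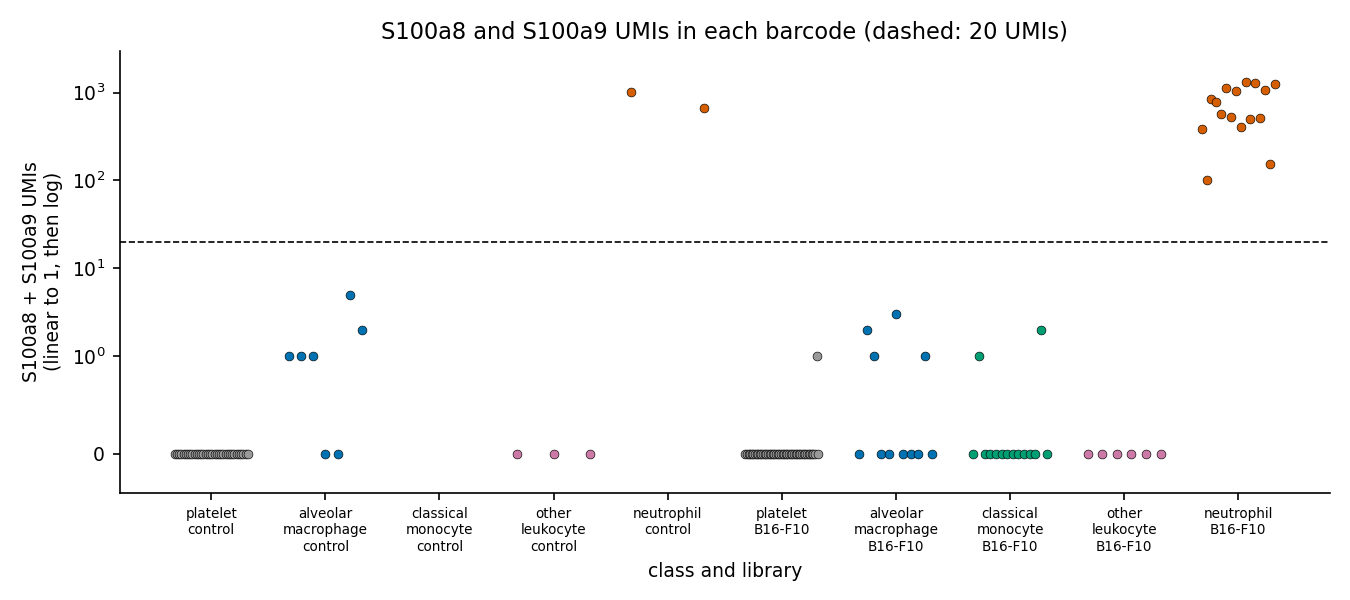
UMIs of S100a8 and S100a9 together (y axis, linear to 1 and logarithmic above) in each barcode, by class and library, with a dashed line at 20. The 2 control and 16 B16-F10 neutrophils lie at 101 or more and every other member lies at 5 or fewer.

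The leukocyte-marked others were named from marker lists, each after the list of which it showed the largest share. They held 7 control and 11 B16-F10 alveolar macrophage-marked barcodes (Chil3, Marco, Siglecf, Ear1 and 6 further genes). Classical monocyte-marked barcodes (Ly6c2, Ccr2, F13a1, Vcan, Plac8, Fn1 and 1 further gene) numbered 0 and 14. The B16-F10 library held 3 nonclassical monocyte-marked barcodes, and 3 barcodes stayed unnamed, with Retnla, Lyz1, Cacna1d, Fcrls and Siglech among their leading genes. The control library held 1 barcode each with interstitial macrophage, type 2 dendritic cell and migratory dendritic cell markers. The last had 8 Tyrobp UMIs and no Fcer1g.

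Sorting on the protein had not removed RNA of the leukocyte gate itself. Ptprc gave 10 and 13 UMIs in the 2 control neutrophils and 10 to 34, with a median of 20.5, in the 16 B16-F10 neutrophils. Classical monocyte-marked barcodes had 9 to 50 Ptprc UMIs (median 27). Alveolar macrophage-marked barcodes had 0 to 42 (median 24) in control and 2 to 61 (median 15) in B16-F10. The positive sort marker was scarce in the same barcodes. Pecam1 summed to 1 UMI in the control and 2 in the B16-F10 neutrophils, 3 and 2 in alveolar macrophage-marked barcodes and 9 in classical monocyte-marked barcodes. It stood at 282 CPM (counts per 1000000 UMIs of the class) in control and 325 CPM in B16-F10 platelet-marked barcodes, against 1274 and 1183 CPM in Cdh5-positive barcodes.

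The classes differed widely in RNA content. Platelet-marked barcodes held 688 to 4580 UMIs in the control library (median 1707.5) and 714 to 3407 in the B16-F10 library (median 1641), and their nuclear RNA Malat1 was at 705 and 601 CPM against 36400 and 31530 CPM in Cdh5-positive barcodes. Neutrophils held 5436 and 5636 UMIs in control and 3991 to 8947 (median 6368) in B16-F10. Alveolar macrophage-marked barcodes had medians of 32399 and 32348 UMIs, and classical monocyte-marked barcodes had a median of 17600.5. Cdh5-positive barcodes had medians of 7459 UMIs (control) and 8500 UMIs (B16-F10).

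**Figure D3:**
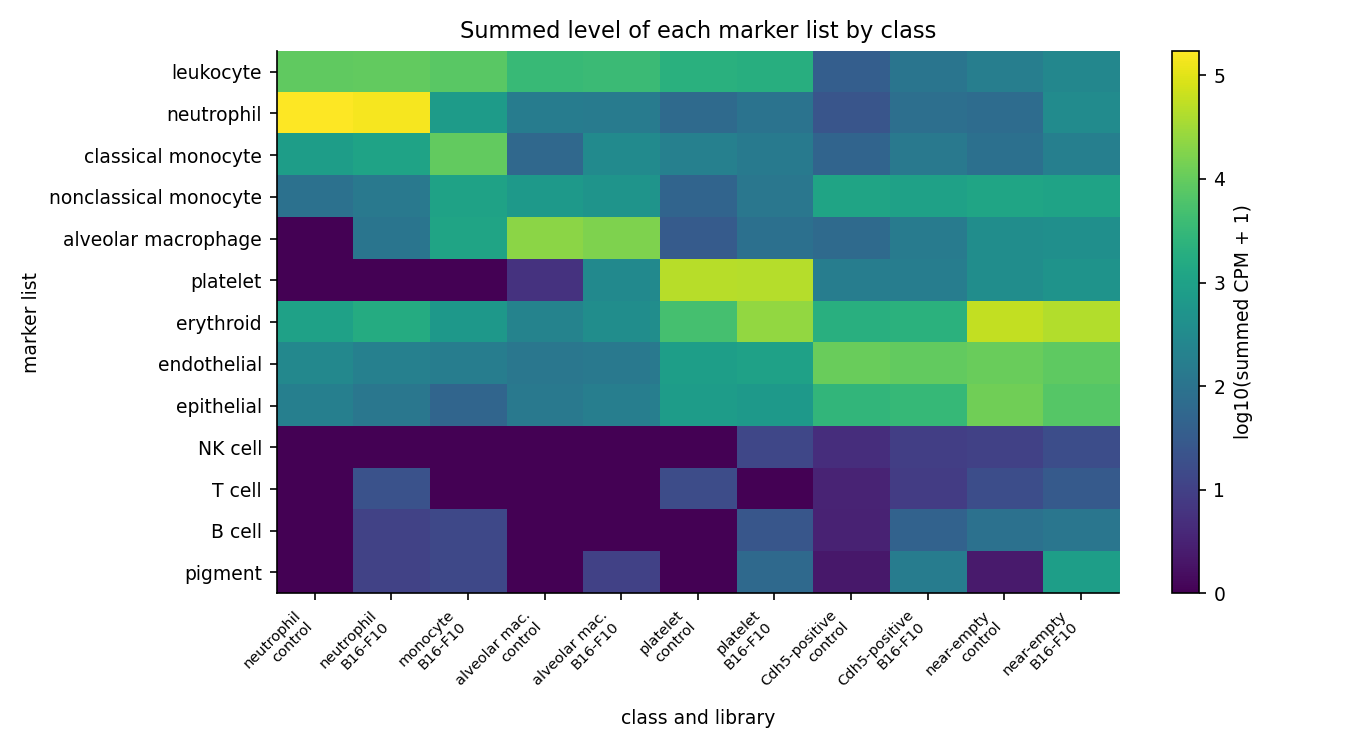
Summed level of each marker list (rows) in each class and library (columns), as log10 of CPM plus 1. Platelet genes stand out in the platelet columns (47120 CPM in the control library) and are at 0 in both neutrophil columns and the monocyte column.

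Markers of other cells were counted in the leukocyte-marked barcodes, in most of which red cell RNA was found. The gate itself kept lymphocyte genes, Nkg7 and Cdh5 low, so counts of those cell types are a description. No leukocyte-marked barcode had 3 or more NK cell, T cell, B cell or melanoma markers. At least 3 endothelial genes were found in 3 of 12 control and 12 of 47 B16-F10 leukocyte-marked barcodes, and at least 3 erythroid genes in 6 and 37. Endothelial genes summed to 119 CPM in control and 129 CPM in B16-F10 alveolar macrophage-marked barcodes, against 11093 and 8815 CPM in near-empty barcodes of 1 to 100 UMIs, which hold free RNA. Any UMI of a pigment gene was found in 0 of 46 control and 13 of 93 B16-F10 members. Their part in the results was not tested.

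The gate held a larger share of barcodes after melanoma cell injection. Members made up 0.439% of control barcodes (exact Clopper-Pearson interval 0.322 to 0.585) and 0.808% of B16-F10 barcodes (0.653 to 0.989). The difference was 0.369 percentage points (Newcombe interval 0.161 to 0.581) and the ratio 1.84 (1.28 to 2.68). Counting error alone did not cover this difference, but the spread between libraries of 1 treatment is unknown.

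The gain lay in the leukocyte-marked barcodes. They rose from 12 barcodes (0.115%) to 47 (0.409%), a ratio of 3.57 (1.86 to 7.39). Platelet-marked barcodes went from 34 (0.324%) to 46 (0.400%), and the difference of 0.075 points had an interval that included 0 (-0.088 to 0.237). Neutrophils numbered 2 (0.019%) and 16 (0.139%), a difference of 0.120 points (0.046 to 0.208) and a ratio of 7.29 with a wide interval of 1.71 to 65.3. All others together went from 44 (0.420%) to 77 (0.669%), a ratio of 1.59 (1.09 to 2.36).

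Classical monocyte-marked barcodes were 0 of 10478 in the control library, with an exact upper limit of 0.035%. They were 14 of 11505 in the B16-F10 library (0.122%, 0.067 to 0.204). Against a floor of 3 barcodes they were 4.25-fold more frequent, and with the counting error of both libraries the lower limit of the ratio was 3.02. Alveolar macrophage-marked barcodes were 7 (0.067%) and 11 (0.096%), and the ratio of 1.43 had an interval of 0.507 to 4.35, which overlapped that of the monocyte-marked barcodes. Whether both ratios differ was not tested. Of the leukocyte-marked barcodes they made up 58.3% in control and 23.4% in B16-F10, a difference of -34.9 points (-59.3 to -5.15). This share depends on the numbers of neutrophils and monocytes, whereas the share of all barcodes was 0.067% and 0.096%. Neutrophils made up 16.7% and 34.0% of the leukocyte-marked barcodes, and that difference of 17.4 points had an interval of -13.2 to 36.01. As a share of all members, neutrophils were 4.35% and 17.2%.

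**Figure D4:**
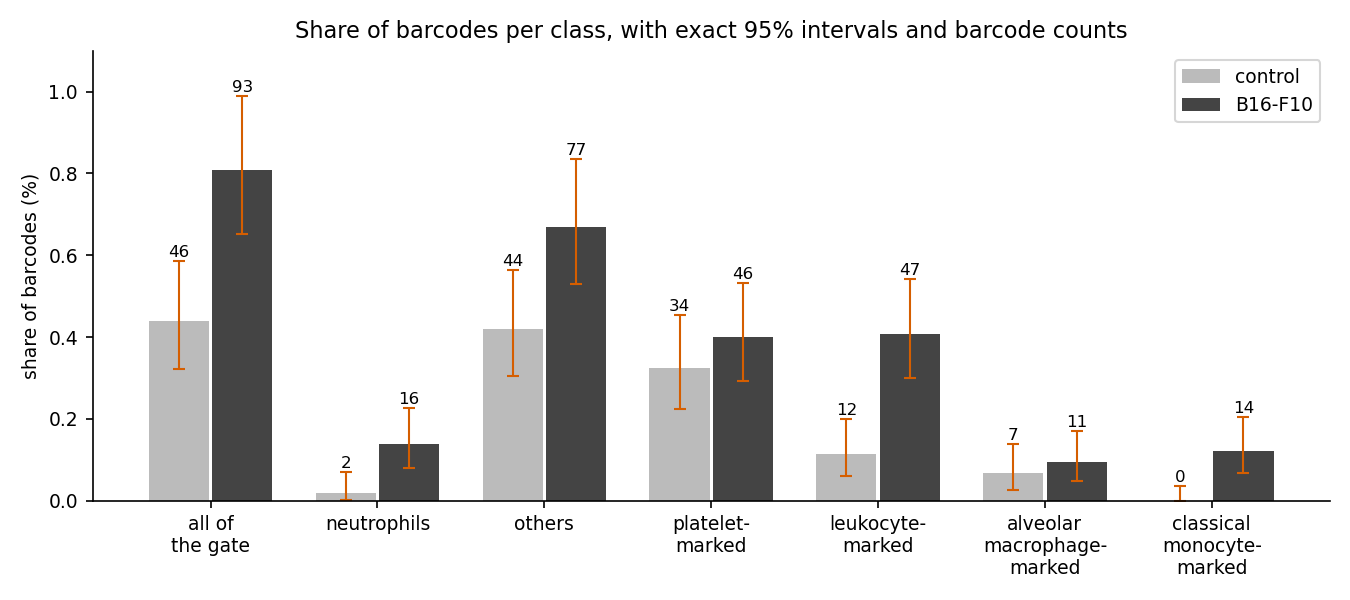
Share of barcodes that passed the limits on genes and mitochondrial UMIs (y axis, %) in each class, with exact Clopper-Pearson 95% intervals as error bars and barcode counts above. The bars of platelet-marked barcodes (34 and 46) have overlapping intervals, whereas leukocyte-marked barcodes went from 12 to 47.

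The limit on Cdh5 left out barcodes in both libraries. Barcodes that met the Tyrobp and Fcer1g limit but carried Cdh5 numbered 26 in control and 79 in B16-F10, beside 46 and 93 members. Whether the limit took a larger share in 1 library was not tested. At least 4 platelet genes were detected in 17 and 22 of them, and at least 50% of the alveolar macrophage genes in 6 and 14. At least 50% of the classical monocyte genes were detected in 1 and 16. Calprotectin at 20 UMIs or more was found in 0 and 4. Of these barcodes, 14 and 40 had only 1 or 2 Cdh5 UMIs, and with such barcodes allowed in, the difference in the share of members was 0.585 points. Whether they are doublets was not tested. Scrublet, a doublet score, was set to mark the highest 8.38% of control and 9.20% of B16-F10 barcodes, which were 878 and 1059. Among these were 0 of 46 control and 2 of 93 B16-F10 members. Marks among the barcodes left out for Cdh5 are not given here.

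Against Cdh5-positive barcodes, the summed RNA of the members held more of the receptor and killing genes of phagocytes and less of the interferon-response genes. The sums were carried by the leukocyte-marked barcodes, which gave 282459 of 346296 UMIs in control and 769641 of 852789 in B16-F10. UMIs were summed over the barcodes of a class, and a gene counts as past the limit when its CPM differed at least 2-fold and the interval of the ratio excluded 1, with at least 20 UMIs over both sums. Of 16646 genes measured in the B16-F10 library, 13.3% were past this limit upwards and 18.5% downwards. In the control library it was 12.1% and 16% of 15944. Because Tyrobp, Fcer1g and Cdh5 chose the barcodes, their values and those of genes that go with them are a description.

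All 20 genes of the ITAM list, which holds Tyrobp and Fcer1g themselves, were higher in B16-F10 members, with a median log2 ratio of 6.24 against 0.04 over all genes, and so were 17 of the 17 measured in control members (median 7.36). Syk, the kinase that binds ITAMs, stood at 528 CPM in B16-F10 members and 14.1 CPM in Cdh5-positive barcodes, a log2 ratio of 5.22 (5.06 to 5.38). Trem1, a Tyrobp-coupled receptor that amplifies inflammation, stood 7.56 higher on the log2 scale. All 6 subunits of the phagocyte NADPH oxidase were higher in both libraries. Its catalytic subunit Cybb stood at 986 CPM against 13.7 CPM in the B16-F10 library (log2 ratio 6.17) and at 575 against 2.88 CPM in the control library (7.64). Of the Fc and complement receptors, 9 of 9 in the B16-F10 library and 7 of 7 in the control library were higher. Integrins of adhesion to endothelium were among them, and Itgb2, their shared beta chain, had log2 ratios of 5.69 and 7.15.

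Of the 23 interferon-response genes measured, 13 were lower in B16-F10 members and 18 in control members, with median log2 ratios of -1.36 and -2.49. Only Zbp1, a sensor of Z-form nucleic acid, was past the limit upwards, and it was so in the B16-F10 library. Isg15, a ubiquitin-like modifier, stood at 53.9 CPM in B16-F10 members against 154 CPM in Cdh5-positive barcodes, and at 5.78 against 104 CPM in the control library. MHC class II genes were higher in 7 of 7 and 6 of 7 cases, but were carried by few barcodes. Cd74, the invariant chain, was detected in 18 of 93 B16-F10 and 5 of 46 control members. MHC class I genes were lower in 3 of 9 and 4 of 9 cases and higher in none.

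Set against all others, neutrophils carried more of the immediate-early and trafficking genes and less of the lysosome and antigen-presentation genes in both libraries. Of 5897 genes measured in the B16-F10 library, 12.8% were past the limit upwards in neutrophils and 22.9% downwards, with a median log2 ratio of -0.48. In the control library, with 2 neutrophils, it was 7.65% and 5.4% of 3113, with a median of 1.01. Lysosome genes were lower in 12 of 12 cases in the B16-F10 and 6 of 11 in the control library. Immediate-early genes were higher in 12 of 14 and 5 of 12 cases. Il1b gave 920 UMIs in the 16 neutrophils and 383 in the 77 others of the B16-F10 library (log2 ratio 4.16, 3.98 to 4.33), and 102 against 4 in the control library (9.59, 8.19 to 11.50). Trafficking genes were higher in 11 of 21 and 7 of 13 cases, and MHC class II genes lower in 6 of 7 and 4 of 6. Platelet-marked barcodes were 34 of 44 others in the control and 46 of 77 in the B16-F10 library, so the compared set was not the same. In summed UMIs they gave 63837 of 335224 and 83148 of 751640. Alveolar macrophage-marked barcodes gave 209622 and 316673 UMIs of these sums. Classical monocyte-marked barcodes, found in the B16-F10 library alone, gave 237957.

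Neutrophils and classical monocyte-marked barcodes of the B16-F10 library differed in many genes. Of 2940 genes measured, 20.4% were past the limit upwards in neutrophils and 30.6% downwards. Calprotectin and the monocyte markers chose these classes and are left aside here. Among genes of trafficking, 11 of 19 were higher in neutrophils and 4 lower, counting Ccr2 and 1 further gene that had served to name the monocyte-marked barcodes. Cxcr2, the receptor for neutrophil-attracting chemokines, gave 171 UMIs in neutrophils and 1 in monocyte-marked barcodes (log2 ratio 8.65, 6.16 to 13.96). Selplg, the selectin ligand with which leukocytes roll, gave 84 UMIs against 39 (log2 ratio 2.34, 1.78 to 2.93). The formyl peptide receptor Fpr1 gave 22 against 0, and the complement receptor C5ar1 73 against 24 (log2 ratio 2.84). Selplg was found in 11 of 14 and C5ar1 in 8 of 14 monocyte-marked barcodes, whereas Cxcr2 was found in 1 and Fpr1 in 0.

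Secreted products differed as well. Il1b, an inflammatory cytokine, stood at 9095 CPM in B16-F10 neutrophils and at 1038 CPM in monocyte-marked barcodes (log2 ratio 3.13, 2.93 to 3.34), and every neutrophil carried it, at 21 to 90 UMIs. Ptgs2, which makes prostaglandins, gave 113 UMIs against 9 (log2 ratio 4.88). The chemokine Cxcl2 was found in 8 of 16 neutrophils and 3 of 14 monocyte-marked barcodes. Ccl2, a chemokine that draws monocytes, was found in 0 of 16 neutrophils and 5 of 14 monocyte-marked barcodes, with 53 of its 76 UMIs in 1 barcode. Hdc, the enzyme that makes histamine, gave 289 UMIs against 1 and was present in 16 of 16 neutrophils. Mmp9, a matrix-degrading enzyme of neutrophil granules, gave 94 against 0.

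The antigen-presentation and lysosome genes ran the other way. MHC class II genes were lower in neutrophils in 7 of 7 cases (median log2 ratio -4.18). In the monocyte-marked barcodes, Cd74 and the class II gene H2-Ab1 came almost wholly from 4 of 14. The other 10 had at most 3 Cd74 UMIs and 1 H2-Ab1 UMI each, so these ratios do not describe most monocyte-marked barcodes. Lysosome genes were lower in 10 of 11 cases (median -2.79), with Ctsd, an aspartic protease, as the 1 higher (log2 ratio 1.42). Ctss, a protease of antigen processing, gave 4 UMIs in neutrophils and 492 in monocyte-marked barcodes (log2 ratio -5.71). Of the 6 oxidase subunits Cybb differed most, with 2 UMIs in neutrophils and 313 in monocyte-marked barcodes (log2 ratio -6.06), while Ncf1 was higher in neutrophils. Immediate-early genes were higher in neutrophils in 6 of 12 cases and lower in none. Among them were Egr1, a transcription factor (log2 ratio 1.35), and Dusp1, a phosphatase of MAP kinases (1.43).

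Classical monocyte-marked barcodes were not of 1 kind. Ccr2, the receptor for Ccl2, was found in all 14, at 7 to 56 UMIs. Cd74 gave 123, 134, 216 and 275 UMIs in 4 of them and 0 to 3 in the other 10, with nothing between. H2-Ab1, an MHC class II chain, gave 25 to 112 UMIs in the same 4 barcodes and 0 or 1 in the others. Il1b gave 26 to 45 UMIs in the 4 barcodes and 0 to 45 in the others, whose median was 5.5, so the ranges overlapped. Of the dendritic cell genes, Cd209a and Flt3 each had a median of 0 UMIs in either set, with up to 6 in the 4 barcodes.

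Because classes were named from marker lists, their marker counts are a description. Neutrophils showed 9 to 11 of 12 neutrophil genes, alveolar macrophage-marked barcodes 6 to 10 of 10 in the control and 8 to 10 of 10 in the B16-F10 library, and classical monocyte-marked barcodes 5 to 7 of 7. Of the 6 genes given as markers of the gate, platelet-marked barcodes showed a median of 1, alveolar macrophage-marked and classical monocyte-marked barcodes 4, and B16-F10 neutrophils 5.

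In the neutrophils, the comparison between libraries rested on 2 control barcodes, and several genes typical of neutrophils had intervals of the ratio that included 0. Of 983 genes measured, 3.97% were past the limit upwards and 3.97% downwards in B16-F10 neutrophils. S100a8, which with S100a9 chose the class, gave 284 and 441 UMIs in the 2 control neutrophils and 60 to 761, with a median of 329, in the B16-F10 neutrophils, and the control values lay inside that range. Il1b gave 50 and 52 UMIs in control and 21 to 90 in B16-F10 neutrophils, and its log2 ratio was -0.02 (-0.31 to 0.29). Retnlg, a secreted resistin-like protein, had a log2 ratio of 0.27 (-0.01 to 0.56), Csf3r, the G-CSF receptor, 0.19 (-0.34 to 0.78), and Cxcr2 -0.10 (-0.77 to 0.65).

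Genes that were higher in B16-F10 neutrophils included transcription factors and early-response genes. Klf2, a transcription factor that restrains inflammatory activation, gave 1 and 5 UMIs in control neutrophils and 5 to 35 in B16-F10 neutrophils, with a log2 ratio of 2.69 (1.55 to 4.15). The groups met at 5 UMIs. Dusp1 gave 4 and 9 against 6 to 45 UMIs (log2 ratio 1.84, 1.05 to 2.76). Plaur, the urokinase receptor, gave 0 and 1 against 0 to 19 UMIs (3.73, 1.22 to 9.04). Lcn2, an iron-scavenging granule protein, gave 0 and 5 against 1 to 61 UMIs (2.00, 0.75 to 3.64). Dusp1, Plaur and Lcn2 therefore overlapped between the libraries barcode by barcode.

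Of 10 immediate-early genes measured in neutrophils, 4 were higher and none lower (Fosb, Fosl2, Atf3 and Dusp1), with a median log2 ratio of 1.28 against 0.08 over all genes. Fosl2, an AP-1 subunit, had 58 UMIs against 1. Its log2 ratio of 2.67 rested on that 1 control UMI. Without the barcode that held it, the control sum of 0 was set to the floor of 3 counts, and the ratio was 0.06. At the same floor it was -0.21 without the barcode with most UMIs in each library. Both values follow from the floor and do not show a fall of Fosl2. Of 14 trafficking genes and 8 glycolysis genes measured, none was past the limit. Lower values could rest on 1 control neutrophil. Cxcl2 gave 0 and 71 UMIs in the 2 control neutrophils and 0 to 38 in the B16-F10 neutrophils, a log2 ratio of -2.34 (-2.77 to -1.90). Without the control barcode that held all 71, the ratio was 1.25, with the control sum of 0 set to the floor of 3 counts. Clec4e, a C-type lectin receptor, went from -1.82 to 0.29 without the control barcode that held 15 of its 17 UMIs.

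Alveolar macrophage-marked barcodes allowed a comparison within 1 marker class, with 7 control and 11 B16-F10 barcodes and 209622 and 316673 UMIs. The class kept 1 unlike B16-F10 barcode of 14715 UMIs, with no Tyrobp UMI and 12.3% mitochondrial UMIs. Its Chil3 was at 272 CPM, against 6050 CPM or more in the other B16-F10 barcodes. Of 4429 genes measured, 4.85% were past the limit upwards and 3.16% downwards in the B16-F10 library. Their identity genes stood close. Csf1r had a log2 ratio of 0.27 (-0.63 to 1.22), Cd68 0.05 (-0.30 to 0.41), the scavenger receptor Marco 0.78 (0.39 to 1.18), the chitinase-like Chil3 -0.54 (-0.61 to -0.46) and the chemokine Ccl6 0.19 (0.07 to 0.30). None of these was past the limit, but the intervals of Marco, Chil3 and Ccl6 excluded 0. Marco and Chil3 helped to name the class, so their likeness is in part built in. Single barcodes had Marco at 0 to 864 CPM in control and at 0 to 1646 CPM in B16-F10. Chemokines, NF-kB targets and metallothioneins were higher, in part through 1 B16-F10 barcode that also carried all 7 platelet genes. Values are therefore given with and without that barcode.

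Cxcl2 (chromosome 5, 90903871 to 90905938 on the plus strand, GRCm38), which draws neutrophils through Cxcr2, was found in 3 of 7 control barcodes at up to 6 UMIs. It was found in 9 of 11 B16-F10 barcodes, 1 of which gave 197 UMIs and the others 30 or fewer. The log2 ratio was 4.17 (3.31 to 5.19), and 2.77 (1.87 to 3.82) without the platelet-carrying barcode, which was the one with 197 UMIs. Of the Cxcl2 UMIs then left, 30 lay in 1 barcode of 4626 UMIs in all and 28 in the barcode of 14715 UMIs. The Cxcl2 ratio without these as well is not given here. Both libraries had barcodes at 0, so the groups overlapped. Cxcl3, a related chemokine, gave 0 UMIs in the control and 27 and 48 in 2 B16-F10 barcodes, the second being the platelet-carrying one. Ccl9, a chemokine of myeloid cells, had a log2 ratio of 1.82 (0.92 to 2.85), and 1.47 without that barcode. Of its 45 remaining UMIs, 24 came from the barcode of 4626 UMIs, which also held the 27 Cxcl3 UMIs. Without this and the platelet-carrying barcode the ratio of Ccl9 was 0.39.

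Of 6 chemokine genes measured, 5 were past the limit upwards, among them Ppbp and Pf4, which belong to platelets. Without the platelet-carrying barcode 3 of 4 were (Cxcl2, Cxcl3 and Ccl9), against 4.27% of all 4216 genes then measured. Of these 3, Cxcl3 was left in the barcode of 4626 UMIs alone. Without both barcodes Ccl9 was at 0.39, which is below the limit. Of 6 cytokine genes 3 were higher (Il1a, Il1b and Tnf), and 1 of 4 without that barcode. Il1b gave 80 UMIs against 4, of which 69 were in that barcode. Il1a, an alarmin, had a log2 ratio of 2.08 (0.99 to 3.36), and 1.26 (0.08 to 2.61) without it. Of its 26 remaining UMIs, 12 lay in the barcode of 4626 UMIs, and without both barcodes the ratio was 0.39 and no longer past the limit. The antagonist Il1rn stood at -0.11 (-0.99 to 0.80).

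Among NF-kB targets 6 of 11 were higher, with a median log2 ratio of 1.02 against 0.03 over all genes, and 2 of 9 without the platelet-carrying barcode, with a median of 0.48. Nfkbia, the inhibitor that NF-kB itself induces, was found in 5 of 7 control barcodes at up to 3 UMIs and in 10 of 11 B16-F10 barcodes at up to 35 (log2 ratio 2.34, 1.34 to 3.53). Without that barcode the ratio was 1.48 (0.39 to 2.72). It then came in part from the barcode of 4626 UMIs, which held 9 Nfkbia UMIs, the most of any B16-F10 barcode left. The ratio without both barcodes is not given here. Cd83, a maturation marker, was the other that stayed past the limit, at 1.30 (0.19 to 2.56). Nfkbia was also higher in Cdh5-positive barcodes, at 329 CPM in the control and 542 CPM in the B16-F10 library.

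Of 12 genes of the JAK-STAT list measured, 1 was past the limit upwards and none downwards. This was Pim1, a serine/threonine kinase induced by JAK-STAT signals. It gave 0 to 6 UMIs in control and 3 to 16 in B16-F10 barcodes, and was present in 5 of 7 and 11 of 11. Its log2 ratio was 1.44 (0.72 to 2.22), and between 1.15 and 1.71 when each barcode was left out in turn. The ranges of the libraries overlapped. Of 17 genes of the ITAM list, 1 was higher and 2 were lower. Gab1, a docking adaptor of growth factor receptors that was named by the size of its ratio, was found in 1 of 7 and 10 of 11 barcodes, with 1 and 36 UMIs (4.58, 2.00 to 9.92).

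Mt2, a metallothionein that binds zinc and copper, was found in 1 of 7 control barcodes, with 3 UMIs, and in 6 of 11 B16-F10 barcodes with 4 to 30. Its log2 ratio was 4.49 (2.90 to 6.79), and 4.65 without the platelet-carrying barcode, which had none. Mt1, its neighbour, gave 113 and 608 UMIs (1.83, 1.54 to 2.13). Mt2 also stood higher in Cdh5-positive barcodes (1.98 CPM in the control and 31.1 CPM in the B16-F10 library) and in near-empty barcodes (10.2 and 72.8 CPM). With free RNA subtracted, the log2 ratio of Mt2 was 4.50.

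Genes of cholesterol synthesis were chosen by the size of their ratio. Srebf2, the transcription factor that turns sterol synthesis on, gave 2 UMIs against 29 (log2 ratio 3.26, 1.28 to 6.38). Cyp51, an enzyme of that synthesis, gave 1 against 21 (3.80, 1.16 to 9.17). Both rest on 1 or 2 control UMIs.

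Among lower genes, Lepr, the leptin receptor, moved most. It gave 0, 8, 14, 16, 16, 21 and 48 UMIs in the 7 control barcodes and 0 to 6 in the 11 B16-F10 barcodes. Only the 1 control barcode at 0 fell within the B16-F10 range. The log2 ratio was -3.63 (-4.51 to -2.85), and between -4.17 and -3.16 when each barcode was left out in turn. Lepr stood at 73.8 and 68.9 CPM in Cdh5-positive barcodes. C5ar1 (log2 ratio -1.31, -1.95 to -0.69), the activating Fc receptor Fcgr4 (-1.04) and Vav1, an exchange factor of ITAM signalling (-1.05), were lower as well. Of 11 lysosome, 7 MHC class I and 3 interferon genes measured, none was past the limit.

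**Figure D5:**
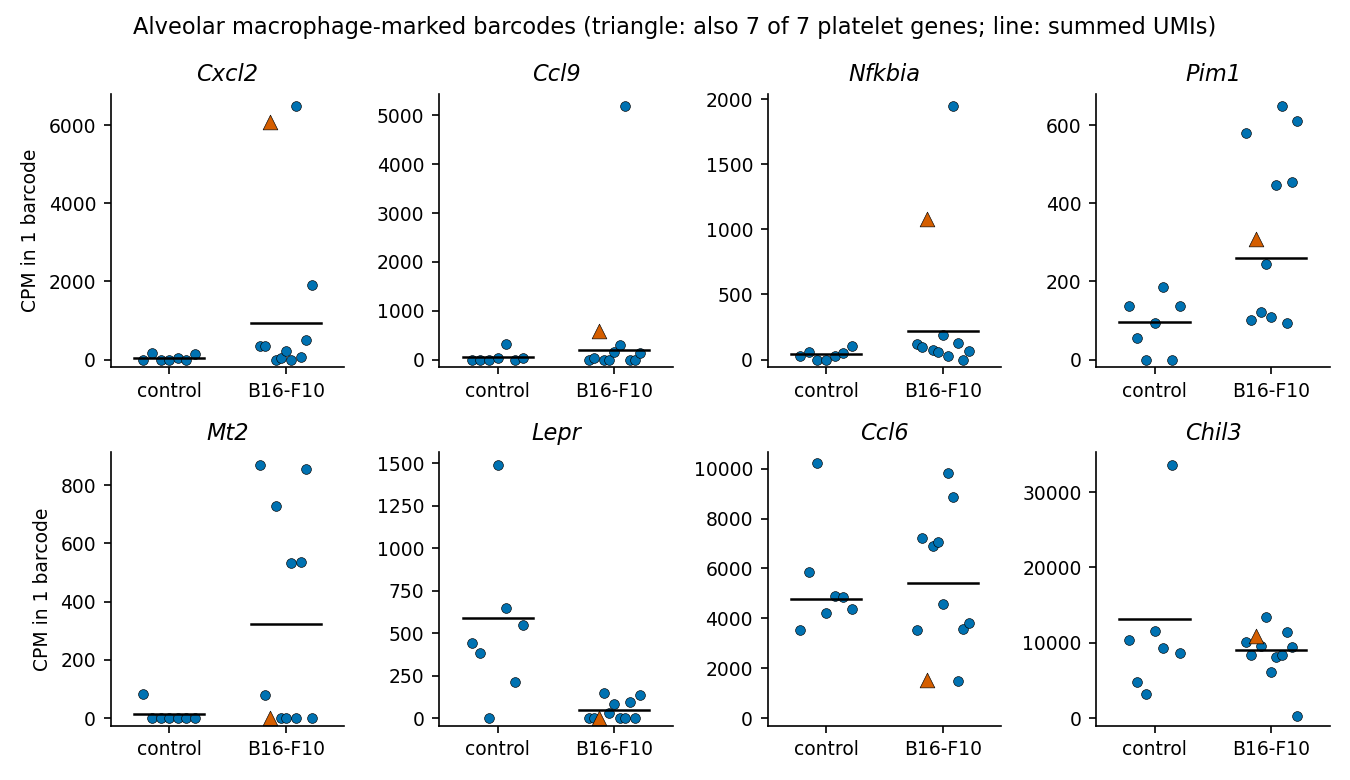
CPM of 8 genes in each alveolar macrophage-marked barcode (7 control, 11 B16-F10), with the CPM of the summed UMIs as a line and the barcode with 7 of 7 platelet genes as a triangle. Lepr is at 47.4 CPM in the B16-F10 sum against 587 CPM in the control sum, and Pim1 is present in all 11 B16-F10 barcodes.

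Platelet-marked barcodes differed little between the libraries in platelet genes. Of 828 genes measured, 3.5% were past the limit upwards and 5.07% downwards. The chemokine genes Ppbp and Pf4, stored in platelet granules, had log2 ratios of -0.12 (-0.24 to 0.01) and -0.02 (-0.12 to 0.09), and both were present in all 34 and 46 barcodes. The integrin Itga2b stood at -0.07 (-0.33 to 0.19), Gp9, part of the receptor for von Willebrand factor, at 0.09 (-0.15 to 0.32), and Fcer1g at 0.05 (-0.24 to 0.34). Gp1ba, another part of that receptor, was lower, with 23 UMIs against 9 (-1.74, -3.03 to -0.57). Ppbp, Pf4, Itga2b and Gp9 helped to name the class, and Fcer1g let nearly all of these barcodes into the gate. The likeness of the libraries in these genes is therefore a description.

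The highest ratio was that of Akap12, a scaffold protein that anchors kinases, with 1 and 26 UMIs in 1 of 34 and 9 of 46 barcodes (log2 ratio 4.32, 1.71 to 9.68). In near-empty barcodes Akap12 was at 156 CPM (control) and 545 CPM (B16-F10), and in Cdh5-positive barcodes at 217 and 826 CPM. With free RNA subtracted, the log2 ratio of Akap12 in platelet-marked barcodes was 2.42. Haemoglobin genes, which mark red cells, also differed. Hbb-bs gave 91 and 992 UMIs (log2 ratio 3.06), of which 741 lay in 1 B16-F10 barcode, and the ratio without it was 1.13. Hbb-bt gave 19 and 100 UMIs (2.02, 1.30 to 2.81) and kept a ratio of at least 1.78 without any 1 barcode. The summed erythroid level was 5013 CPM in control and 24811 CPM in B16-F10 platelet-marked barcodes, while it was 57024 and 43918 CPM in near-empty barcodes. The part of red cell RNA in this was not tested.

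Taken without division, the others differed between libraries along with the share of their classes. Of 6649 genes measured, 8.12% were past the limit upwards and 5.08% downwards. Upward genes included Plac8 (0 and 668 UMIs), Vcan, a matrix proteoglycan (0 and 243), and Hp, haptoglobin (0 and 241), which were present in 18, 12 and 15 of 77 B16-F10 barcodes. Lower genes included Ccr7 and Ccl22, which all came from the 1 control barcode with migratory dendritic cell markers. Of the interferon-response genes 7 of 11 were higher and none lower, with a median log2 ratio of 1.42 against 0.09 over all genes. Isg15 gave 2 and 27 UMIs (2.59, 0.60 to 5.71). None of the 3 interferon genes measured in alveolar macrophage-marked barcodes was past the limit.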

How the data were processed

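Lung cells were profiled by droplet single-cell RNA-seq in 2 libraries, each from pooled mice. The deposited values were raw UMI counts per gene and barcode, which the authors made with Cell Ranger 7.2.0 on mm10; whether intron reads were counted is not given in the sources used here. All listed barcodes were read, for 32285 genes, of which 32158 matched the GENCODE annotation of GRCm38 used for coordinates.

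UMIs were summed per class and library. CPM carried exact Poisson intervals, shares exact Clopper-Pearson intervals, differences of shares Newcombe intervals, and log2 ratios exact conditional binomial intervals, all at 95%. Genes needed 20 UMIs over both sums, and a sum of 0 was set to a floor of 3 counts over the group. With 1 library per group no test was possible. Free RNA was read from barcodes of 1 to 100 UMIs, and doublets were scored with Scrublet and not removed. The ratio script was tested on simulated data. Python 3.11.15, numpy 2.4.6, scipy 1.17.1, pandas 2.3.3, scanpy 1.11.5 and matplotlib 3.10.9 were used.

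The members and the gene lists were chosen with earlier results of these data known. Classes within the others were set after values were seen, so their leading genes are a description. Genes named were those of the lists, and beyond them the 10 with the largest ratio in each direction past the limit and found in at least 5 barcodes of the higher group. Csf1r, Malat1, Ptprc and other genes used to describe classes, the coordinates and the genes of unnamed or single barcodes were added after values were seen. Alternatives covered the limits on genes, mitochondrial UMIs, Tyrobp and Fcer1g, calprotectin, Cdh5 and UMIs per gene, doublets, platelet and NK cell genes, centring, equal weight, thinning and free RNA. Some genes are not reported here.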

Additional observations from a re-analysis of the deposited data

Results flagged for a closer look

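Cxcl2 had ratios of opposite sign in 2 classes, and single barcodes weighed in both. Its log2 ratio of the B16-F10 over the control library was 4.17 in alveolar macrophage-marked barcodes and -2.34 in neutrophils. No test was made of that difference, and all 71 control UMIs in neutrophils lay in 1 of 2 barcodes. Without that control barcode the neutrophil ratio was 1.25, with the control sum set to the floor of 3 counts.

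Near-empty barcodes of 1 to 100 UMIs held calprotectin RNA, at 26.1 CPM in the control and 218 CPM in the B16-F10 library.

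Barcodes with Tyrobp and Fcer1g that were left out for Cdh5 numbered 26 in the control and 79 in the B16-F10 library. Of these, 1 and 16 showed at least 50% of the classical monocyte genes, and 0 and 4 had at least 20 calprotectin UMIs. These barcodes are no members. They belong to the Cdh5-positive set of 9329 and 9688 barcodes, and in part to the alternatives with Cdh5 of up to 2 UMIs.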

How the results depend on the processing

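No paired analysis was possible because there was 1 library per group. Of 379 values that answer a comparison, 331 stayed the same over the alternatives, 48 moved and none turned. Most of these were counts of genes past the limit or of lists, which can move but cannot turn. The same count can also hold different genes. Of 4073 values of single genes and lists, 3837 stayed the same, 222 moved and 14 turned. Alternatives with Cdh5 of up to 2 UMIs, and those within platelet-marked, alveolar macrophage-marked and classical monocyte-marked barcodes, were chosen after seeing the data; the causes of the moves were not tested, beyond fewer genes or UMIs being kept.

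With Cdh5 of up to 2 UMIs, the difference in share was 0.585 points for members and 0.500 points for leukocyte-marked barcodes. Lower genes then numbered 59 in neutrophils and 1351 for neutrophils over classical monocyte-marked barcodes, and higher genes 332 in alveolar macrophage-marked and 68 in platelet-marked barcodes. With barcodes thinned to 500 UMIs, higher and lower genes numbered 31 and 22 in the others, 1 and 2 in neutrophils, 64 and 122 for neutrophils over others, 664 and 667 for members over Cdh5-positive barcodes, 2 and 2 in alveolar macrophage-marked barcodes, 7 and 8 in platelet-marked barcodes, and 26 and 40 for neutrophils over classical monocyte-marked barcodes. With 50 UMIs per gene, they numbered 305 and 163 in the others, 71 and 34 in alveolar macrophage-marked barcodes, 8 and 8 in platelet-marked barcodes and 288 and 433 for neutrophils over classical monocyte-marked barcodes, and 21 were lower in neutrophils. With no minimum, 524 were lower in the others, 128 in neutrophils and 237 in alveolar macrophage-marked barcodes, 47 were higher and 105 lower in platelet-marked barcodes, and 949 were higher for neutrophils over classical monocyte-marked barcodes. With 10 UMIs, 76 were lower in platelet-marked barcodes. With 1000 to 5000 genes per barcode, 40 were higher and 92 lower in alveolar macrophage-marked barcodes and 11 higher in platelet-marked barcodes. With Tyrobp and Fcer1g of 2 or more, 877 were higher in the others and 50 in platelet-marked barcodes, and with 8 or more, 4 were higher and 7 lower in platelet-marked barcodes. With equal weight, 192 were lower in the others, with centring 818 were lower in neutrophils over others, and without the barcode with most UMIs 25 were higher in neutrophils. Of the list medians in the others, 14 were above the median over all genes measured, and 8 with 1000 to 5000 genes and 2 when thinned.

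The chemokine median in the others turned to -0.033 with 1000 to 5000 genes, -0.25 with 10 UMIs, -0.58 with no minimum and -0.40 when thinned, and the cytokine median to -0.15 with no minimum. In the others, Icam1 turned to -0.046 with 1000 to 5000 genes, Jak2 to 0.27 without barcodes with NK cell genes and Ltb4r1 to -0.23 with equal weight. In neutrophils, Csf2rb turned to 0.24 and Fosl2 to -0.21 without the barcode with most UMIs in each library. For Fosl2 no control UMI then remained, and the control sum was set to the floor of 3 counts. In alveolar macrophage-marked barcodes, the cytokine median turned to -0.017 without barcodes with Ppbp or Pf4 and -0.045 without the platelet-carrying barcode, and Tnfaip3 to -0.039 with 1000 to 5000 genes. Hba-a2 in platelet-marked barcodes turned to -0.22 with Tyrobp and Fcer1g of 8 or more. Past the limit in every alternative were 24 of 44 named genes in alveolar macrophage-marked barcodes, 5 of 21 in neutrophils, 50 of 87 in the others and 3 of 21 in platelet-marked barcodes.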

Other observations

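Barcodes that carried Cdh5 and at least 50% of the alveolar macrophage genes, 6 in the control and 14 in the B16-F10 library, had been left out of the members. Their summed Cxcl2 was 18.9 CPM in the control and 505 CPM in the B16-F10 library, with 176 of 273 B16-F10 UMIs in 1 barcode. Mt2 was at 37.9 and 540 CPM, and Ccl9 at 9.46 and 105 CPM, found in 2 of 6 and 11 of 14 barcodes. Lepr was at 274 and 192 CPM, a smaller difference than among members. These libraries are the same as those of the members and are no replicate.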
